A study of Mus musculus with 18 samples.

Results

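Peaks of undigested liver RNA that lay in introns or outside genes made up 3079 of the 40807 peaks in the 6 Input libraries. A peak was taken when it touched no exon of its own strand in the GENCODE M21 annotation of the mouse genome (GRCm38). Each such peak was intronic (inside a gene of its strand), antisense (outside the genes of its strand but opposite a gene of the other strand) or outside genes. There were 1054 intronic peaks, 828 antisense peaks and 1197 peaks outside genes. Peaks of the 6 libraries were merged by strand where they overlapped by at least 1 bp, which gave 13173 regions, of which 1047 touched no exon on their strand. Of these regions 433 were intronic, 248 were antisense and 366 lay outside genes. Another 275 of the chosen peaks had merged with an exonic peak of another library and are counted as peaks but not as regions.

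The study compared liver total RNA of mice aged 8 to 9 days from 2 genotypes, Adar-/-; Mavs-/- and Mavs-/-. Both groups lack MAVS, the adaptor through which the RNA sensor MDA5 signals, so no group is wild type although the titles of the Mavs-/- libraries say so. The first group, called ADAR1-deficient here, also lacks ADAR1, the enzyme that edits adenosines of double-stranded RNA to inosines. The double mutant line was backcrossed to Bl6J, and the lack of MAVS rescues the ADAR1-deficient mice. Each genotype had 3 libraries of undigested RNA (Input), 3 of RNA digested with RNase A/T1 after incubation with MDA5ΔCARD, a form of MDA5 without its signalling domains (MDA5-protected), and 3 of RNA digested without the protein (RNase only). Libraries were strand-specific, depleted of rRNA and not selected for poly(A), and the study describes the 3 replicates as biological, so that p-values measure the spread between these samples. Peaks were called by the authors in each library and strand, and the digested libraries were called against Input of the same genotype.

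Introns are removed while a gene is transcribed and are normally degraded soon after, so that intron signal in total RNA stands for unspliced precursors, retained introns, excised introns that last or unannotated exons. RNA outside genes includes transcripts that run past the end of a gene and short RNAs made upstream of promoters, and RNA antisense to a gene can pair with the transcript of that gene. Long double-stranded RNA is the ligand of MDA5 and the substrate of ADAR1, which acts largely on introns and other noncoding sequence. Total RNA holds nuclear RNA, and the Input lists show where its coverage was significant.

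The lists held all 7 hepatocyte markers looked up (among them Alb, Apoa1 and Cps1) as exonic peaks in 6 of 6 Input libraries. Of the erythroid markers the 4 globin genes were in all 6 as well and Alas2 was in 3. Clec4f of Kupffer cells was in all 6, while Cd68 and Adgre1 of the same cells had no exonic peak in any Input library. Of stellate markers Col1a1 and Dcn were in 5 and Col3a1 in 4. Stab2 and Kdr of endothelial cells were in 5, and Pecam1 of these cells had no exonic peak. The cholangiocyte markers Krt19, Krt7 and Epcam had none either. Adar had no intron peak, no exonic peak in the Mavs-/- libraries, and exonic peaks over 0, 452 and 285 nt in the ADAR1-deficient libraries, and Mavs had none, so the lists do not check the genotypes. Input lists held 6991, 8868 and 8948 peaks in the ADAR1-deficient libraries and 5049, 4326 and 6625 in the Mavs-/- libraries. Peak lists carry no counts of reads, and the read numbers that the study gives in its supplement were not used here. From the lists alone, whether the shorter Mavs-/- lists come from depth or from RNA cannot be told apart. The strength of a peak is given as its rank, the percentile of its area (summed significance) among the peaks of its own library, in which 100 is the largest.

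Sequence could be read for 120 of the 1047 regions, and those at promoters were rich in G and C. Of the 120, 42 lay wholly within a RefSeq promoter window (250 bases before to 50 after a gene start, GRCm38.p6), a choice that by itself limits their length. Of these, the 6 that all 6 Input libraries held, and that lay wholly before the gene start and on no exon of either strand, are given to show what they share. Capitals mark GGGCGG or its complement CCGCCC, searched on both strands. They are written 5′ to 3′ on the strand of the peak and named by the gene of the promoter.
Igfbp3: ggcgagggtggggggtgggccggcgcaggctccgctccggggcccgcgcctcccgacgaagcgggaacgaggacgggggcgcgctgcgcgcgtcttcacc
Eif3j1: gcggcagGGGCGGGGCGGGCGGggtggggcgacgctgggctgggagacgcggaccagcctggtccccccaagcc
Hhip: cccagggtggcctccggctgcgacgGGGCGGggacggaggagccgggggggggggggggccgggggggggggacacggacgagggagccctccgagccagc
Gm35062: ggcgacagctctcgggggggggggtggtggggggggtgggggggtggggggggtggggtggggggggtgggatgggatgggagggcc
Elovl7: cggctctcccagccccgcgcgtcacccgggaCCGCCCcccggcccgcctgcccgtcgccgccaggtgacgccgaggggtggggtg
Dlk2: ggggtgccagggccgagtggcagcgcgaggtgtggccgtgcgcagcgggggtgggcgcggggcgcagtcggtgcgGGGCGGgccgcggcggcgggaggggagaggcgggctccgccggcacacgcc

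The first 3 lie at chr11:7213987-7214086 (+), chr2:122028442-122028515 (-) and chr8:80058157-80058257 (+), and the others at chr10:120688287-120688373 (-), chr13:108214281-108214365 (-) and chr17:46297739-46297864 (+). The Dlk2 and Gm35062 regions lie in introns of a gene of their strand, and the other 4 lie outside genes. All 42 promoter regions had at least 75% G or C, with a median of 84.3%, against a median of 54.0% in the same stretches of all 32851 promoter windows. The motif was in 37 of the 42 (88.1%), against 19.8% of the same stretches over all promoters and 35.7% of whole windows of 300 bases. It consists of G and C only, and the part of base composition in this difference was not tested. Of the 42 regions, 29 lay on the strand opposite to the gene whose promoter held them. None of the 6 shown had a digested peak, and at Hhip the other strand held an Input region too.

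A second set lay opposite small noncoding RNAs. A pair of regions opposite Gm24447 and Gm26315, genes whose sequence matches Rn7sk (7SK RNA, a regulator of transcription elongation), is given with the 226 bases that both share in capitals. The sequences are the complements of GENCODE M21 exons, read on the strand of the peak.
Gm24447: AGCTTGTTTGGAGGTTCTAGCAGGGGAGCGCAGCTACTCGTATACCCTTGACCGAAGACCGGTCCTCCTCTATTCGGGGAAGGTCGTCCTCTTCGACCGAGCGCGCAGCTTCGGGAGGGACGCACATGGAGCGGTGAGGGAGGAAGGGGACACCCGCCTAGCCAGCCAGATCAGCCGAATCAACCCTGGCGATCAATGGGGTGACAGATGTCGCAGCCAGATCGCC
Gm26315: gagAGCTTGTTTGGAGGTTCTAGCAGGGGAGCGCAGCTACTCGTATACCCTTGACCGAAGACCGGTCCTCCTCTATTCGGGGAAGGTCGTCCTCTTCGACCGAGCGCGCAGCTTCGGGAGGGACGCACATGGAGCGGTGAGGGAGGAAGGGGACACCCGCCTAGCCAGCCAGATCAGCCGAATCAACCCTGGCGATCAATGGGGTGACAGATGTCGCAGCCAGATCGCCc

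These lie at chr15:93234372-93234597 (-) and chr2:7076177-7076406 (+). Both stretches match the complement of Rn7sk at 100%, so reads of these regions could come from another copy, and the copy that a peak is assigned to is uncertain. Both regions were in all 3 Mavs-/- and in no ADAR1-deficient library, at ranks 37.4, 51.5 and 63.9 for Gm24447 and 54.8, 78.0 and 80.7 for Gm26315. Neither had a digested peak. At both, the other strand held an Input region too, so antisense RNA and sense reads on the wrong strand cannot be told apart here.

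The other 78 regions, 69 antisense and 9 intronic, lay opposite a single exon and could be read from it. Their median G or C content was 81.8%, and 48 of 78 reached 75%, while of 4261 exonic Input regions inside 1 exon 92 (2.16%) did, with a median of 53.2%. The sequences of the other regions were not analysed here.

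The number of peaks in introns or outside genes was 575, 679 and 636 in the ADAR1-deficient libraries and 492, 287 and 410 in the Mavs-/- libraries. The groups did not overlap (630 ± 52.3 against 396 ± 103, SD, n = 3 each, p = 0.1 by a two-sided exact permutation test, which 3 against 3 libraries cannot undercut). With the 4326 strongest peaks of every library the difference, ADAR1-deficient minus Mavs-/-, turned to -36.3 peaks (exact permutation p = 0.7). As a share of the library the peaks took 8.22%, 7.66% and 7.11% in the ADAR1-deficient and 9.74%, 6.63% and 6.19% in the Mavs-/- libraries, which overlapped (p = 1, exact permutation). The exact 95% intervals of these shares, which cover counting error only, ran from 5.62% at the lowest to 10.6% at the highest.

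No class differed between the genotypes past the test. Intronic peaks were 3.08%, 3.15% and 2.84% of the ADAR1-deficient lists and 2.75%, 1.46% and 1.57% of the Mavs-/- lists, with no overlap (difference 1.09 percentage points, exact permutation p = 0.1, adjusted p = 0.4 over 4 shares). Antisense peaks were 2.22%, 1.75% and 1.36% against 2.99%, 2.43% and 2.11%, which overlapped (difference -0.73, exact permutation p = 0.2, adjusted p = 0.4). Peaks outside genes were 2.93%, 2.76% and 2.91% against 4.00%, 2.75% and 2.51% (exact permutation p = 1). The Mavs-/- libraries varied more among themselves, and Mavs-/- library 1 had the highest share of all 3 classes in its group.

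**Figure D1:**
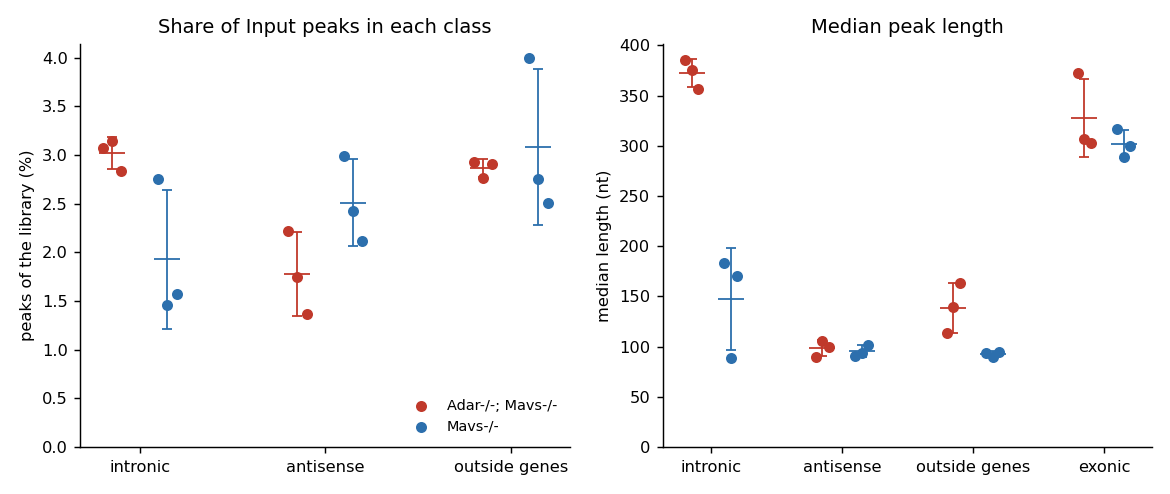
Left, share of each Input library's peaks (%) in the 3 classes, and right, median peak length (nt) in these classes and in exonic peaks. Points are libraries (red ADAR1-deficient, blue Mavs-/-), horizontal marks are means and bars are SD (n = 3). Intronic peaks were the class in which the genotypes were apart in both panels, with median lengths of 357 to 385 nt against 89 to 183 nt.

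The median length of intronic peaks was higher in each ADAR1-deficient library, in a design that cannot pass the test. It was 385, 375 and 357 nt against 183, 89 and 170 nt in Mavs-/- libraries (372 ± 14.2 against 147 ± 50.9, exact permutation p = 0.1, adjusted p = 0.133 over 4 lengths). Peaks outside genes had medians of 113, 139 and 163 nt against 94, 90 and 95 nt, again without overlap (exact permutation p = 0.1, adjusted p = 0.133). Antisense peaks had medians of 90, 106 and 99.5 nt against 91, 94 and 102 nt, which overlapped (difference 2.83 nt, exact permutation p = 0.8). Set against exonic peaks of the same library, the median differed by -218 nt for antisense peaks and by -199 nt for peaks outside genes, lower in 6 of 6 libraries (two-sided exact sign-flip permutation test over libraries, p = 0.031, the smallest possible, adjusted p = 0.0417 over 8 measures). Intronic peaks were 13 to 68 nt longer than exonic ones in the ADAR1-deficient libraries and 130 to 200 nt shorter in the Mavs-/- libraries, so over all 6 no difference was detected (mean -54.8 nt, exact sign-flip p = 0.3125). A longer peak is more likely to touch an exon and be classed as exonic, so the rule itself favours short peaks in the 3 classes. The part of the rule in these length differences was not tested.

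These peaks were also weaker than exonic ones. The median rank differed by -16.1 ± 3.44 for intronic peaks and by -6.98 ± 1.61 for peaks outside genes, lower in 6 of 6 libraries each (SD over libraries, n = 6, exact sign-flip p = 0.031, adjusted p = 0.0417). For antisense peaks the difference of -5.86 ± 4.78 did not pass (5 of 6 libraries lower, exact sign-flip p = 0.0625, adjusted p = 0.0714). Area grows with length, and how much of the lower rank goes with the shorter peaks was not tested.

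Regions were mostly seen in a single library or in all 6. Of the intronic regions 250 (57.7%) were in 1 library and 34 (7.85%) in all 6. Antisense regions were in 1 library in 92 cases (37.1%) and in all 6 in 62 (25.0%), and regions outside genes in 142 (38.8%) and 81 (22.1%). Over all 13173 Input regions 18.3% were held by all 6. A region held by all 6 was short in each class, with median lengths of 98.5 nt (intronic), 114 nt (antisense) and 103 nt (outside genes), whereas exonic regions in all 6 had a median of 482.5 nt. Of the 177 regions in all 6 libraries, 111 (62.7%) had at most 150 nt, against 98 of 2234 exonic ones (4.39%). Merging can only lengthen a region, and these regions were merged from 6 libraries. It also took 275 peaks out of the classes, where the merged region touched an exon. Longer regions are more likely to touch one, and the part of this in the lengths and the recurrence was not tested.

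**Figure D2:**
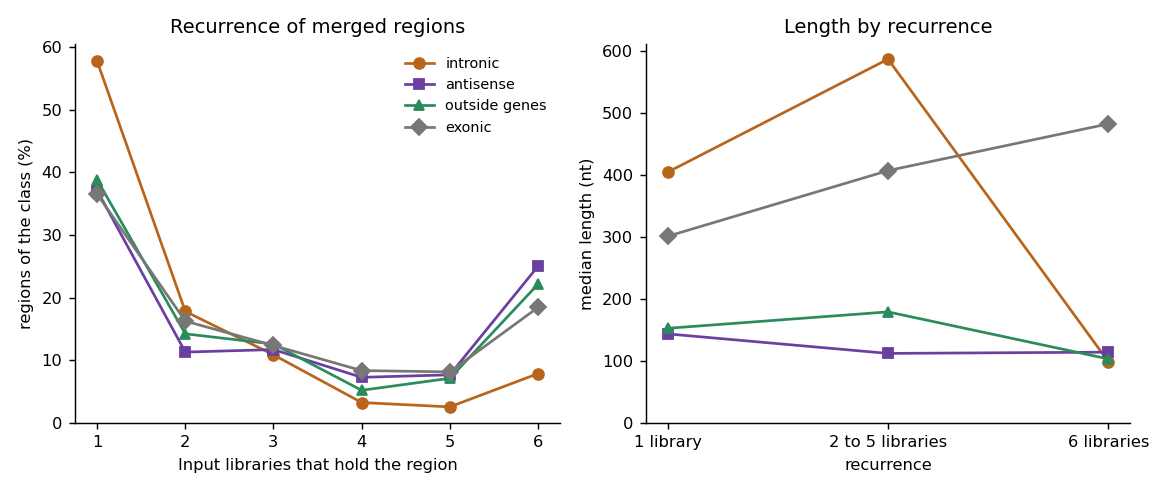
Left, share of the regions of each class (%) held by 1 to 6 Input libraries, and right, median region length (nt) by recurrence. Lines stand for intronic, antisense, outside-gene and exonic regions. Intronic regions fall from 57.7% in 1 library to 7.85% in 6, and the 3 classes without exons end near 100 nt where exonic regions reach 482.5 nt.

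Of the 177 regions in all 6 libraries, 68 (38.4%) were within 500 bp of a transcript start on either strand, a share close to the 39.3% of all Input regions in 6 libraries. By class it was 40 of 62 (64.5%) for antisense, 12 of 34 (35.3%) for intronic and 16 of 81 (19.8%) for regions outside genes, with no test of the difference. Of the 34 intronic ones only 8 had a host gene with an exonic Input peak, against 203 of the 250 regions seen in 1 library. Most intronic regions in all 6 libraries thus lay in genes without an exonic Input peak. For 43 of the 177 the other strand held such a region as well. In 14 pairs both strands were in all 6 libraries, with a median length of 82.5 nt. Examples are Ptprm, a receptor protein tyrosine phosphatase, with 99 nt on the gene's strand and 101 nt opposite (chr17:67290512-67290610 and chr17:67290520-67290620, intron 1), and Mylip, a ubiquitin ligase for lipoprotein receptors, with 229 and 80 nt.

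The named intronic regions in all 6 libraries are chosen by rank. The strongest, 375 nt in intron 2 of the noncoding gene 9330185C12Rik (chr1:113903932-113904306, -), had ranks of 97.8, 98.2 and 98.1 in the ADAR1-deficient and 97.9, 97.0 and 98.3 in the Mavs-/- libraries. A region of 111 nt in intron 1 of Taco1, a translational activator of mitochondrial cytochrome c oxidase (chr11:106066768-106066878, +), was at 88.3, 90.0 and 89.7 against 88.9, 88.2 and 88.8. Both were as strong in one genotype as in the other, and their ranks spanned less than 2 points. Others among the 8 strongest lay in Gm26618, Tmtc2, Ptprm, Dnah7a, Map4 and Sugct. Of these, Dnah7a, which encodes an axonemal dynein heavy chain, had ranks of 93.1, 95.6 and 96.6 in the ADAR1-deficient and 73.0, 29.3 and 33.4 in the Mavs-/- libraries, without overlap. Sugct did not overlap either, at 75.4, 82.7 and 86.5 against 59.3, 16.2 and 70.7. The Dnah7a region is the longest constant intronic one (754 nt), followed by Pphln1 (435 nt) and Rp1 (418 nt).

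Intronic regions were spread over many genes. The 433 intronic regions lay in 266 host genes, of which 239 are protein-coding, 177 had 1 region and 18 had at least 5. In 205 of the 430 regions with an intron number (47.7%) it was the first intron, and 72 regions (16.6%) lay within 200 bp of an exon of their strand. The 5 hosts with the most regions were Ass1 (18), Cps1 (16), Cyp3a25 (14), Lepr (13) and Cyp2b9 (12). Ass1 and Cps1 encode urea cycle enzymes, Cyp3a25 and Cyp2b9 cytochrome P450 enzymes, and Lepr the leptin receptor. Without the introns of these 5 genes the share of the chosen peaks differed by -0.16 percentage points between the genotypes.

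In Ass1 (argininosuccinate synthase) peaks covered 6717, 8560 and 8267 nt of intron in the ADAR1-deficient libraries and 0 nt in each Mavs-/- library. Its exons were covered over 4303, 4165 and 3812 nt against 237, 474 and 388 nt, so exon and intron coverage moved together. In bulk RNA, fewer cells that express a gene and less RNA per cell cannot be told apart, and more precursor and slower splicing cannot either. Cps1 had 3068, 6130 and 4652 nt of intron against 0, 788 and 0 nt, while its exon coverage overlapped (9133, 7181 and 8949 against 5294, 9717 and 5022 nt). Cyp3a25 had 585, 953 and 6481 nt of intron and Lepr 855, 7647 and 2522 nt in the ADAR1-deficient libraries, and both had 0 nt in all Mavs-/- libraries. The exons of both were almost without peaks there too, at 0 nt in each Mavs-/- library for Cyp3a25 and 0, 0 and 305 nt for Lepr.

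Cyp2b9 went its own way, with 5416, 3506 and 718 nt of intron in the ADAR1-deficient and 8783, 361 and 2798 nt in the Mavs-/- libraries, which overlapped. Igfbp2, which encodes an insulin-like growth factor binding protein and was chosen after its values were seen, had 11366, 3697 and 7969 nt of intron against 0 nt in each Mavs-/- library. All of its 11 regions lay in intron 1. Its exons had peaks in all 6 libraries, over 4061, 1696 and 2320 nt against 1623, 1297 and 1557 nt.

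**Figure D3:**
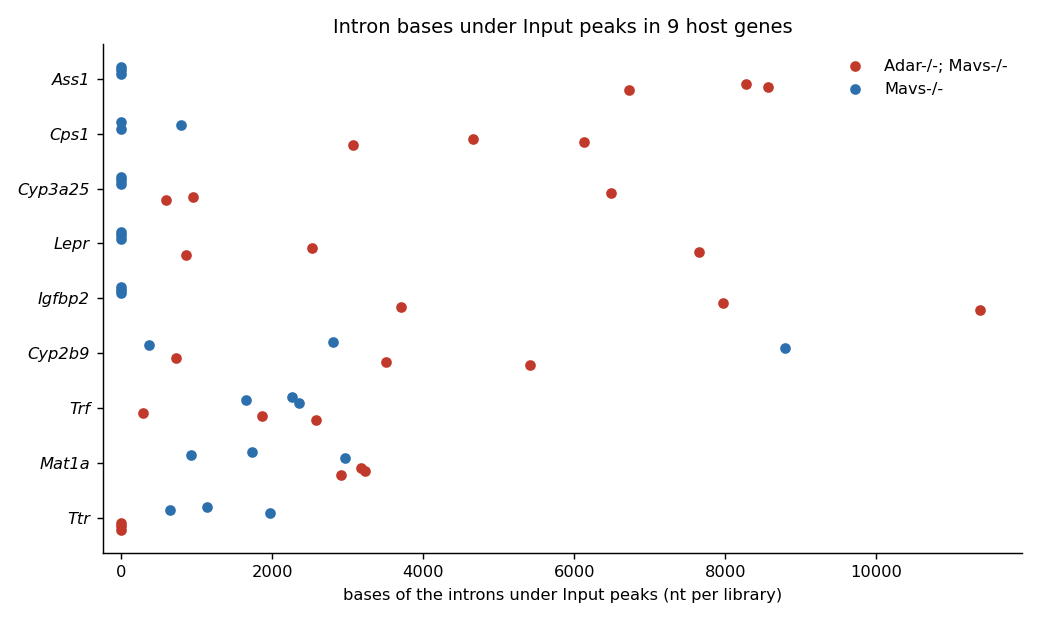
Bases of intron under Input peaks (nt, horizontal axis) in each library for 9 host genes, with ADAR1-deficient libraries in red and Mavs-/- libraries in blue. From Ass1 to Igfbp2 the 3 ADAR1-deficient libraries lie above the 3 Mavs-/- libraries, Cyp2b9, Trf and Mat1a overlap between genotypes, and Ttr has intron peaks in Mavs-/- libraries only.

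Over all 266 hosts, 30 (11.3%) had more intron bases in every ADAR1-deficient than in every Mavs-/- library, and 5 (1.88%) the reverse. The same comparison of exon bases over the 5257 genes with an exonic Input peak gave 887 (16.9%) and 156 (2.97%). The share of hosts that were apart was thus below that of exons in each direction, and hosts with 0 nt in some libraries of both groups cannot be apart. Intron peaks were in all 3 ADAR1-deficient and no Mavs-/- library for 16 hosts and the reverse for 2, Ttr and Dnah7b. Ttr, the thyroid hormone carrier transthyretin, had 0 nt in each ADAR1-deficient and 1970, 645 and 1137 nt in the Mavs-/- libraries, and its exon coverage was also higher there (1567, 1183 and 728 against 4060, 1603 and 2026 nt).

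Liver gene lists held many hosts. Of 44 genes for plasma proteins 15 hosted an intronic peak, 35.7% of the 42 with an exonic peak, and of 41 annotated genes for liver metabolic enzymes 18 did, 47.4% of 38. Over all 5257 genes with an exonic peak 163 (3.10%) were hosts. The lists were chosen for high liver expression, and the part of expression in these shares was not tested. Among metabolic enzymes 5 of 18 hosts had more intron bases in every ADAR1-deficient library, Ass1 and Cps1 among them, and 0 the reverse. Among plasma proteins 1 did, Rbp4 (retinol binding protein, 2037, 308 and 3279 nt against 0 nt in each), and 1, Ttr, did the reverse.

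Mat1a, which makes S-adenosylmethionine, had 2904, 3230 and 3172 nt against 2966, 917 and 1727 nt, and Trf (transferrin) 2584, 1857 and 293 nt against 2351, 1654 and 2263 nt. These 2 had intron peaks in all 6 libraries and overlapped. Other hosts of these lists seen in at least 2 libraries included Alb, Afp, Serpina1b, Serpina1d, Ahsg, Kng1 and Kng2 among plasma proteins and Arg1, G6pc, Tat, Cyp2e1, Acsl1 and Cpt1a among enzymes, without separation of the genotypes.

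Of 14 fetal and imprinted genes 3 were hosts (Meg3, Grb10 and Peg3), and of 13 annotated nuclear long noncoding RNAs only Meg3 was, with 979, 535 and 0 nt against 1116, 0 and 955 nt. None of 15 annotated erythroid genes and none of 23 interferon-stimulated or sensor genes was a host. Of these, 12 and 6 had an exonic peak, numbers at which a share of 3.10% may give no host.

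Antisense regions lay opposite exons in 142 cases (57.3%) and opposite introns only in 106. Of all 248, 138 (55.6%) were within 500 bp of a transcript start, 221 were opposite a protein-coding gene, 9 opposite a miRNA gene and 8 opposite a lincRNA gene. The other strand had an Input region in 87 cases (35.1%). The strongest, 250 nt opposite Gm12896 (chr4:122122845-122123094, -), ranked 99.0, 99.3 and 99.2 in the ADAR1-deficient and 99.5, 99.2 and 99.4 in the Mavs-/- libraries. A region of 255 nt opposite an intron of Dnah7b (chr1:46075929-46076183, -) ranked 98.6, 98.8 and 98.8 against 98.7, 98.4 and 98.8. Further strong ones were opposite Gm12895, Cntnap5b, Ppp1r13b, Dram1, Pou4f1 and Gm29371. Of these, the region of 92 nt opposite the start of Dram1, a regulator of autophagy, was at 85.8, 89.1 and 88.8 against 89.9, 88.4 and 89.7, and Gm29371 (997 nt, the longest constant antisense region) at 95.7, 96.0 and 97.2 against 72.3, 76.0 and 67.8. Gm29371 was the only one of the 8 with a gap of that size between the genotypes.

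Antisense sites that face an exonic Input peak were counted by genotype, with no test. Of 67 regions seen in Mavs-/- libraries only, 27 (40.3%) lay opposite both an exon and an Input region of the other strand, against 7 of 57 (12.3%) seen in ADAR1-deficient libraries only and 35 of 124 (28.2%) seen in both. Of the 67, 53 were in 1 library, as were 39 of the 57, so single libraries weigh in these shares. Alb, which encodes serum albumin, had 7 antisense regions of 132 to 230 nt, all opposite exons with Input peaks and all in Mavs-/- libraries. The 3 ADAR1-deficient libraries had 0 nt there, and the Mavs-/- libraries had 214, 344 and 1215 nt. Trf had 3 such regions, all in Mavs-/- library 3 (515 nt), and Apoe 2, over 358, 0 and 853 nt in the Mavs-/- libraries and 0 nt in the others. Apoa1 had 0, 268 and 0 nt against 248, 570 and 533 nt. Mavs-/- library 3 held 7 of the 7 Alb regions, and without a test of strand leakage these values cannot be assigned to antisense RNA or to sense reads on the wrong strand, which cannot be told apart in a peak list.

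Regions outside genes were near gene ends in part. Of 366, 40 (10.9%) lay within 1 kb after a gene of their strand, 69 (18.9%) within 5 kb and 103 (28.1%) within 10 kb. A further 89 were over 50 kb from any exon of their strand, and 118 (32.2%) lay inside a gene that RefSeq annotates on either strand. The strongest, 1051 nt between Ypel2 and Dhx40 (chr11:86814907-86815957, -), ranked 98.8, 99.3 and 99.4 in the ADAR1-deficient and 97.0, 92.9 and 94.3 in the Mavs-/- libraries. A pair of regions at chr1:5170576-5170797, 100290 bp from the nearest exon of the strand, had ranks of 95.4, 96.5 and 96.5 against 96.9, 96.0 and 96.6 on the minus strand. The region 184 bp past the end of Commd3 and before Bmi1 (chr2:18676416-18676743, +, 328 nt) had ranks of 93.0, 94.1 and 94.4 against 93.2, 91.5 and 93.8. The last 2 differed little between the genotypes. Other strong ones lay 326 bp before Purg, 6997 bp before Usp14, 7106 bp before Gm48064 and 24057 bp past Sp3os. A further one was far from genes of its strand, with Slc7a14 the nearer at 137890 bp.

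The longest region outside genes began 586 bp past the end of Cyp2b9 and ran for 6366 nt (chr7:26211248-26217613, +). With 4 others it formed a run to position 26226058, in which Input peaks covered 2214, 3030 and 2438 nt in the ADAR1-deficient and 10111, 5187 and 3968 nt in the Mavs-/- libraries. Peaks of all 6 MDA5-protected libraries lay in this run, over 2409, 4773 and 4845 nt against 3146, 3846 and 2732 nt. RNase only peaks covered 0, 983 and 2125 nt against 751, 1224 and 346 nt. The introns of Cyp2b9 held digested peaks as well: between its first and last intronic region the MDA5-protected peaks covered 0, 4197 and 3063 nt in the ADAR1-deficient and 1103, 2385 and 1858 nt in the Mavs-/- libraries. RNase only peaks there covered 0, 2498 and 3657 nt against 1516, 2759 and 1261 nt, a similar range. The Input was thus higher in each Mavs-/- library past the gene, while the MDA5-protected coverage overlapped. Cyp2b genes are close paralogs, and reads of shared stretches may be placed in any copy.

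Regions in all 3 libraries of one genotype and none of the other numbered 57 (5.44% of 1047) for ADAR1-deficient and 10 (0.955%) for Mavs-/-, where all Input regions gave 5.4% and 0.865%. Both shares were close to those of all Input regions. In any ADAR1-deficient and no Mavs-/- library were 495 (47.3%), against 43.1% of all Input regions, and the reverse held for 173 (16.5%), against 11.9%. These differences from all Input regions were not tested. With the 4326 strongest peaks of every library the ADAR1-deficient count was 17, and the share over all Input regions at that setting is not reported here. Leaving out a library eases the rule for every region. Without ADAR1-deficient libraries 1, 2 and 3 in turn the 57 became 107, 91 and 91, and without Mavs-/- library 2 the 10 became 20. With 1 library left out, the shares over all Input regions reached at most 10.6% and 1.69%. By class the 57 were 23 intronic (5.31% of the class), 6 antisense (2.42%) and 28 outside genes (7.65%), and the 10 were 1 (0.231%), 5 (2.02%) and 4 (1.09%).

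The 5 strongest of the 57 all lay outside genes, beside a region that all 6 libraries held or in a run of such regions. The first, 1169 nt between Alppl2 and Gm28375 (chr1:87076413-87077581, -), had ranks of 86.1, 88.3 and 93.3. In the run around it (chr1:87075453-87080553) peaks covered 3354, 3853 and 3950 nt in the ADAR1-deficient and 235, 661 and 642 nt in the Mavs-/- libraries. The others were the stretch before Gm11843 on chromosome 4 and 3 of the runs given next. Covered bases by genotype were looked up after these values were seen and differed likewise before Gm48064 on chromosome 12 (1226, 1810 and 1373 against 463, 403 and 408 nt), before Gm24574 on chromosome 2 (2510, 1380 and 1688 against 620, 750 and 472 nt), between Sema4d and Shc3 on chromosome 13 (1742, 1596 and 2207 against 844, 551 and 703 nt) and in intron 3 of Dnah7a (1657, 1537 and 1690 against 514, 638 and 294 nt). In each of these 5 runs a single region was in all 6 libraries and the covered stretch was longer in every ADAR1-deficient library. None of the 5 runs had a digested peak. Among intronic regions, outside the naming rule, the strongest of the 57 were in Ass1 intron 5 (4713 nt, ranks 96.3, 30.7 and 89.7) and Igfbp2 intron 1 (1638 nt, ranks 91.0, 63.3 and 55.0).

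Of the 10 Mavs-/- regions, 5 were antisense to small noncoding RNAs. Beside Gm26315 and Gm24447 these included the ones opposite n-R5s193, a copy of 5S rRNA (ranks 78.2, 79.9 and 84.7), and Rpph1, the RNA of RNase P (chr14:50807453-50807763, +, ranks 14.0, 80.5 and 55.9). The strongest was opposite Rn7s6 (ranks 83.7, 88.8 and 88.0). At Rn7s6 and Rpph1 the other strand held an Input region too. Such sites were not limited to this genotype, as regions opposite Rn7s1, Rn7s2 and n-R5-8s1 were in all 6 libraries. Of all 248 antisense regions 5 lay opposite a gene annotated as misc_RNA, 3 opposite an rRNA gene and 1 opposite a ribozyme gene. The share over all Input regions was not counted. The intronic one of the 10 was in Dnah7b on the plus strand (chr1:46075936-46076183, ranks 54.8, 61.9 and 84.3), opposite the minus-strand region that ranked over 98 in all 6 libraries. Leaving out all regions within 500 bp of a transcript start lowered the Mavs-/- count to 5.

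Digested libraries held peaks at these sites more often than at exonic Input peaks. Of the chosen Input peaks, 8.52%, 8.25% and 7.86% in the ADAR1-deficient and 16.9%, 16.0% and 14.6% in the Mavs-/- libraries overlapped an MDA5-protected peak of the genotype, against 0.515% to 1.11% of exonic peaks. The difference was 11.3 ± 4.34 percentage points (SD over libraries, n = 6, 6 of 6 higher, two-sided exact sign-flip p = 0.031, adjusted p = 0.0357 over 8 shares). It was 17.2 for antisense, 9.83 for intronic and 8.92 for outside-gene peaks, each higher in 6 of 6 libraries with the same exact p. For RNase only peaks the shares were 6.92% to 8.17% and 11.5% to 14.0% against 3.61% to 6.22% of exonic peaks (difference 5.33 ± 3.05, exact sign-flip p = 0.031, adjusted p = 0.0357). The RNase only difference was 8.74 for antisense and 5.05 for outside-gene peaks (6 of 6 each, adjusted p = 0.0357, exact sign-flip), and 3.78 for intronic peaks, where 4 of 6 were higher and the test did not pass (exact sign-flip p = 0.1875). Taking peaks by their middle base, the RNase only difference of all peaks was 1.66 and did not pass (exact sign-flip, adjusted p = 0.107), nor did that outside genes without peaks within 500 bp of a transcript start (3.55, adjusted p = 0.0714, exact sign-flip).

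A digested peak had to exceed its Input control, so a strong Input signal makes one harder to call, and exonic peaks ranked higher. The part of this in the differences was not tested. Ends of peaks met more often where the libraries had the same number, counted over all Input peaks, exonic ones included. In the 6 same-numbered pairs a digested peak ended exactly where an Input peak began, or the reverse, 124 times for MDA5-protected peaks. For RNase only peaks it was 740 times, against 13 and 54 in the 12 other pairs within a genotype. The part of the chosen peaks in these counts was not counted separately.

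**Figure D4:**
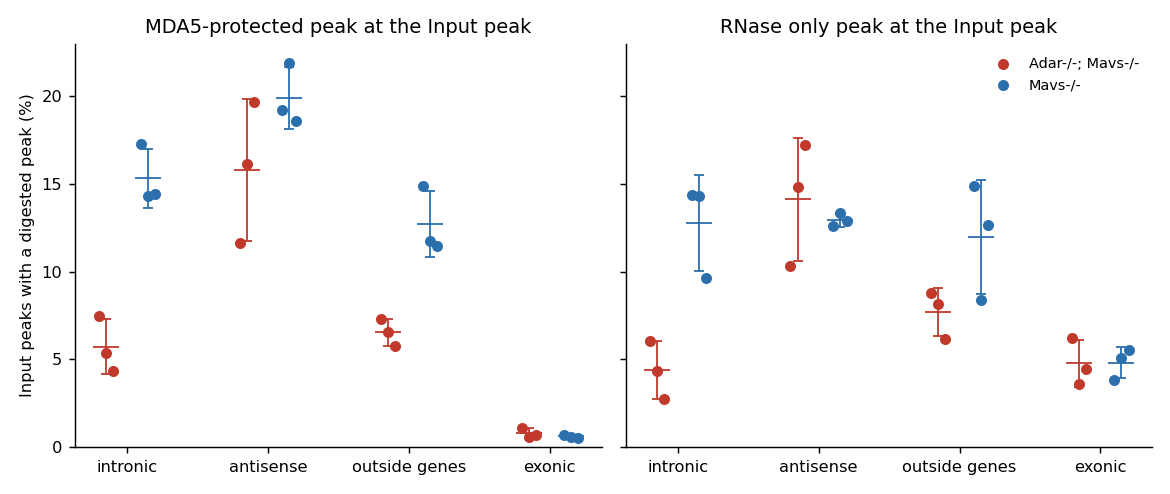
Share of Input peaks (%) overlapped by an MDA5-protected (left) or RNase only (right) peak of the same genotype, for the 3 classes and exonic peaks. Points are Input libraries (red ADAR1-deficient, blue Mavs-/-), marks are means and bars SD (n = 3). Exonic peaks stay at or under 1.11% on the left, where antisense peaks reach 21.9%.

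Between genotypes the MDA5-protected share of all chosen peaks was 8.21 ± 0.33% in ADAR1-deficient and 15.8 ± 1.13% in Mavs-/- libraries, without overlap (SD, n = 3 each, exact permutation p = 0.1, adjusted p = 0.16 over 8 shares). Intronic peaks were at 7.44%, 5.38% and 4.33% against 17.3%, 14.3% and 14.4%, and peaks outside genes at 7.32%, 6.53% and 5.77% against 14.9%, 11.8% and 11.4%, both apart. Antisense peaks were at 11.6%, 16.1% and 19.7% against 19.2%, 21.9% and 18.6%, and overlapped (exact permutation p = 0.3). The RNase only share was lower in each ADAR1-deficient library as well, at 7.73 ± 0.70% against 12.5 ± 1.35% for all chosen peaks and 4.37 ± 1.65% against 12.8 ± 2.73% for intronic ones (SD, n = 3 each, exact permutation p = 0.1, adjusted p = 0.16 each), and overlapped for antisense peaks and those outside genes. The MDA5-protected lists held 1636, 2768 and 2868 peaks in the ADAR1-deficient and 1829, 1220 and 1180 in the Mavs-/- libraries, which overlapped. The lower ADAR1-deficient shares go with more and longer Input peaks in the denominator, whose part was not tested.

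Counted by region, 109 of 1047 (10.4%) overlapped a peak of any MDA5-protected library, against 1.96% of all Input regions and 1.23% of exonic ones. For RNase only it was 110 (10.5%), against 9.05% of all Input regions. Both kinds were at 70 regions, MDA5-protected peaks alone at 39 and RNase only peaks alone at 40. By class the MDA5-protected count was 32 of 433 intronic (7.39%), 36 of 248 antisense (14.5%) and 41 of 366 outside genes (11.2%). Of the 177 regions in all 6 Input libraries 36 (20.3%) had an MDA5-protected peak, against 81 of all 2411 Input regions in 6 libraries (3.36%). No digested peak was at 133 of the 177, and at 1955 of the 2234 exonic regions in 6 libraries.

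All 18 libraries held 7 of these 177 regions, against 7 of the 2234 exonic regions in 6 Input libraries, with no test of the difference. The 7 of the 177 were the regions opposite Gm12896, Foxo1 and Prdm16, the one in intron 1 of Kat6a, the minus strand at chr1:5170576-5170797, the one after Commd3 and one at chr2:73012735-73012972 (+), 24057 bp past Sp3os. Foxo1 and Prdm16 encode transcription factors and Kat6a a histone acetyltransferase. The Foxo1 region (chr3:52269759-52269883, -, 125 nt) ranked 65.7, 68.2 and 68.2 against 75.4, 73.1 and 70.4, and Kat6a (chr8:22859741-22859884, +, 144 nt) 44.3, 41.3 and 38.7 against 4.06, 23.2 and 48.2. Foxo1 and Kat6a lay 324 and 192 bp from a transcript start. Peaks of all 6 MDA5-protected and 5 of 6 RNase only libraries were on both strands at Ptprm.

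Another 4 of the 177 regions were held by all 6 Input and all 6 MDA5-protected libraries and by no RNase only library. Of the 2234 exonic regions in 6 Input libraries 2 were. The 4 lay opposite Dtnbp1 (chr13:45002099-45002180, +, 82 nt), Grip1 (chr10:119546002-119546083, -, 82 nt) and Erf (chr7:25250760-25250957, +, 198 nt) and at chr15:99002897-99002957 (+, 61 nt). Dtnbp1 encodes dysbindin, Grip1 a scaffold protein and Erf a transcription repressor. Ranks at Dtnbp1 were 73.0, 75.6 and 74.0 against 73.1, 71.5 and 70.1, and at Grip1 67.6, 71.9 and 70.1 against 70.7, 66.3 and 75.3, so the genotypes overlapped at both. Both genotypes held these 4 in 3 of 3 MDA5-protected libraries.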

How the data were processed

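The peak lists of 18 libraries were analysed, of which 6 were Input. Per the submitters' notes and the study's methods, reads were trimmed by the authors (Trim Galore 0.6.6) and mapped to GRCm38 (NextGenMap), and Genrich 0.6.1 called peaks on each strand. The authors deposited for each peak a score, its signal (area under the significance curve, at least 500.008) and the −log10 of its p-value and adjusted p-value, and left out blacklisted and rRNA stretches. Only positions, strands and the area, as rank within a library, were used.

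Peaks were assigned to GENCODE M21 exons, genes or neither on their own strand, and 1 bp of overlap sufficed throughout. Libraries were the unit of every test (two-sided exact permutation over 3 against 3 or exact sign-flips over 6, with Benjamini-Hochberg adjustment), and shares have Clopper-Pearson intervals (95%). Sequences came from GENCODE M21 transcripts and RefSeq promoters, since a genome sequence was not used, so that GC content over all peaks, repeats and polyadenylation signals were not analysed here. Classes, merging and tests were checked on simulated data. Replicate numbers did not pair the genotypes: correlations of same-numbered deviations were 0.04, 0.01 and -0.04.

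The members and gene lists were chosen with earlier results of these data known. Named were, per class, the 8 regions held by most Input libraries, the 3 longest in all 6 and the 3 with most MDA5-protected or RNase only libraries, all by rank, the 5 strongest regions of each genotype, the 5 hosts with most regions, hosts of the gene lists in at least 2 libraries, and Adar and Mavs. A run joins regions of a strand up to 10000 bp apart. Some regions and genes that this rule names are not reported here. Alternatives were other exon rules, an area of 1000, equal numbers of peaks, other overlap rules, libraries left out and the replicate number as a block. Regions near transcript starts and the introns of 5 hosts were left out in alternatives chosen after seeing the data. Python 3.11.15, numpy 2.4.6, pandas 2.3.3, scipy 1.17.1, matplotlib 3.10.9 and BLAST 2.17.0 (blastn, word size 7) were used.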

Additional observations from a re-analysis of the deposited data

Results flagged for a closer look

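The length of intronic peaks relative to exonic peaks of the same library went in opposite directions in the genotypes. All 3 ADAR1-deficient libraries had longer intronic peaks (45.0 ± 28.6 nt, SD, n = 3) and all 3 Mavs-/- libraries shorter ones (-155 ± 39.3 nt, SD, n = 3). The gap between the genotypes was 199.7 nt, and this difference itself was not tested. Lists were longer in the ADAR1-deficient libraries, and the part of list length in the gap was not tested.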

How the results depend on the processing

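Of 227 alternative values that left out no library, 208 were classed as unchanged. For tested differences this meant the same direction and the same side of the threshold. For counts of regions it meant a change within a fixed factor. Comparisons of the genotypes cannot pass at any setting, so for them only the direction could change. With the middle base on no exon the RNase only difference from exonic peaks was 1.66 percentage points for all chosen peaks, which no longer passed, and -1.41 for intronic peaks, in the other direction. The RNase only difference outside genes was 3.55 without peaks near transcript starts and no longer passed, and the intronic one 4.42 with 50% of the peak covered, which passed. The genotype difference of the share of all chosen peaks turned to -0.35 with an area of at least 1000, to -0.84 with equal numbers of peaks and to -0.16 without the 5 leading hosts, and that of their number to -36.3 with equal numbers. Also reversed were the antisense length (-4 nt) and the antisense RNase only share (-2.21) with an area of at least 1000, the antisense MDA5-protected share (3.48) with equal numbers, and the intronic length against exonic peaks without 3′ UTR contact (14.3 nt). The counts of regions in 3 libraries of a genotype only were, for ADAR1-deficient, 122 by middle base, 15 by area and 17 with equal numbers, and for Mavs-/- 20 by middle base, 5 without exons of either strand, 6 by area and 5 without transcript starts. The cause of these shifts was not tested, and the shares over all Input regions at these settings are not reported here.

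Without any 1 Input library no exact sign-flip test can pass, since the smallest p over 5 libraries is 0.0625. Ranges over the libraries left out were 10.4 to 12.2 (all), 16.3 to 18.5 (antisense), 8.48 to 11.1 (intronic) and 7.88 to 9.69 (outside genes) percentage points for MDA5-protected peaks, and 4.35 to 6.00, 7.93 to 9.67 and 3.85 to 5.72 for RNase only peaks of all, antisense and outside-gene members. Differences in length ran from -186.6 to -155.2 nt (all), -222.1 to -204.7 nt (antisense) and -210.8 to -187 nt (outside genes), and in rank from -10.2 to -9.38, -16.9 to -14.8 (intronic) and -7.36 to -6.47 (outside genes). The genotype differences that changed sign were the share of all (-0.53 to 1.25, negative without ADAR1-deficient library 1 or Mavs-/- library 2 or 3, at -0.14, -0.30 and -0.53) and of outside-gene peaks (-0.51 to 0.24, positive without Mavs-/- library 1), the antisense length (-0.92 to 7.08 nt, negative without ADAR1-deficient library 2) and the antisense RNase only share (-0.34 to 3.10, negative without ADAR1-deficient library 3). Counts in 1 genotype ran from 61 to 107 and from 10 to 20, where leaving out a library eases the rule for all Input regions as well.

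With the replicate number as a block, which the data do not show to pair the samples, the number of chosen peaks differed by the same 233.7 (exact sign-flip p = 0.25, the smallest that 3 pairs allow), and no call changed. Depth is unknown from peak lists, so an absent peak does not show absent RNA, and list length and genotype cannot be told apart.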
